A study of Bos taurus with 6 samples.

Results

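Insulin-like growth factor (IGF) ligands and IGF-binding proteins were measured at 3 depths of bovine articular cartilage. The genes were IGF1, IGF2, IGFBP2, IGFBP3, IGFBP4, IGFBP5, IGFBP6 and IGFBP7, and every probeset that the deposited matrix names with 1 of these 8 symbols was taken, whatever its values. All 8 genes had a probeset. They gave 15 of the 24016 probesets tested, 4 each for IGF1 and IGF2, 2 for IGFBP3 and 1 for each other gene, among 11626 named genes.

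IGF1 and IGF2 are secreted ligands that signal through the IGF1 receptor, and in cartilage they are known to stimulate proteoglycan synthesis and to support chondrocyte survival. IGF-binding proteins hold most extracellular IGF, prolong its life, restrain it or present it to the receptor, and are themselves cut by proteases. IGF2R clears IGF2 from the cell surface.

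The tissue was normal, grade 1 cartilage from the femoral condyles of the knees of 2 skeletally mature cattle, bov1 and bov4, from animals aged 14 to 30 months, and no treatment is given. Cores were cut into 50 µm sections. The superficial zone (SZ) is the upper 10% of these, the middle zone (MZ) is 40% from the centre, and the deep zone (DZ) is the lower 30%, with about 200 µm discarded in between. Each zone of each animal gave 1 Affymetrix array from 5 ng of amplified total RNA (6 arrays, n = 2 animals a zone), and the design asks which genes differ with depth.

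Values are log2 expression from the deposited series table, which the authors had normalised between arrays. Differences are the first zone minus the second with the standard error (SE) of a limma fit with an animal block, and a difference is called where the adjusted p over all 24016 probesets is under 0.05. Values are given for bov1 first and bov4 second. The lower quartile of the arrays lay between 2.71 and 2.87, and values under it have an uncertain size, since no detection calls were used here. Probesets of 1 gene are numbered by their mean brightness, and their levels are not ranked against those of other genes. Probeset identifiers stand in the panel titles of the plots.

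Array medians were 4.42 to 4.46. COL2A1, the main cartilage collagen, read 13.69 to 14.15 over the 6 arrays, and PRG4, the lubricin gene of the cartilage surface, read 13.37 and 13.53 in SZ against 4.28 and 6.82 in DZ. The DZ arrays carry another code in their descriptions than the SZ and MZ arrays, so this code and the deep zone cannot be told apart. The mean of 27 Bacillus control probesets was 5.72 and 6.13 in SZ, 4.93 and 4.40 in MZ and 3.80 and 3.75 in DZ. The 3′ minus 5′ value of cyclophilin was 2.24 and 1.69 in SZ, 2.23 and 2.66 in MZ and 3.30 and 2.54 in DZ. That of gapd was −0.09 and 0.05 in SZ, 0.92 and 0.30 in MZ and 0.45 and 0.26 in DZ, so the controls did not order the zones alike. The part of these controls in the zone differences was not tested.

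The binding proteins differed in where they were high, with IGFBP6 higher at the surface and IGFBP3 higher in the deep zone. IGFBP4 and IGFBP5 had their lowest mean in MZ without being called. Of the 15 probesets, 2 were called in SZ minus DZ, where 2.75% of all probesets were. The probeset called higher in SZ was IGFBP6, beside 1.03% of all probesets, and the probeset called lower was IGFBP3, beside 1.72%.

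In MZ minus DZ, 1 of 15 was called (IGFBP3), in the lower direction, where 0.704% of all probesets were called, 0.612% lower and 0.0916% higher. In SZ minus MZ, limma called 0 of 15, where it called 0.0416% of all probesets, 0.025% higher and 0.0167% lower. At an unadjusted limma p under 0.05, 4 of the 15 passed in SZ minus MZ, and 6 in each comparison with DZ. Of all 24016 probesets, 2123 passed this in SZ minus MZ, 4225 in SZ minus DZ and 2385 in MZ minus DZ. The F test over any zone called the brighter IGFBP3 probeset (adjusted p = 0.0231) and 0 of the other 14, where it called 1.84% of all probesets.

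Both arrays of one zone lay outside those of the other for 8 of 15 probesets in SZ minus MZ (7 higher, 1 lower), where 35.2% of all did so, 17.7% higher and 17.5% lower. In SZ minus DZ this held for 8 of 15 (4 higher, 4 lower) and for 45.5% of all, 26.3% higher and 19.1% lower. In MZ minus DZ it held for 9 of 15 (2 higher, 7 lower) and for 38.0% of all, 22.7% higher and 15.2% lower. A difference of at least 1 log2 unit was reached by 3, 7 and 5 of the 15 in that order, beside 4.51%, 9.71% and 5.23% of all probesets. The comparisons share arrays.

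**Figure D1:**
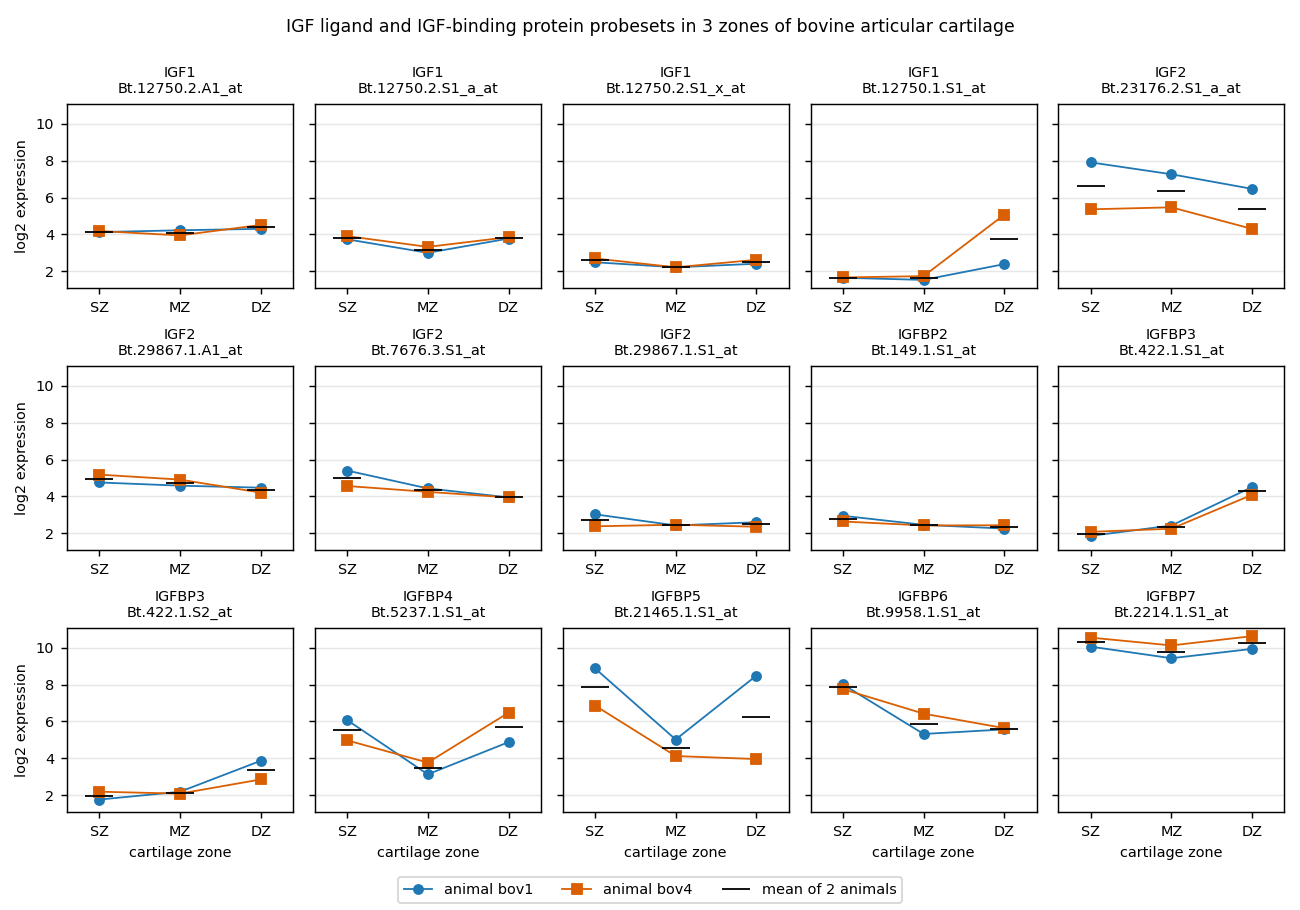
Log2 expression (vertical axis) of each of the 15 probesets in SZ, MZ and DZ (horizontal axis), with a line for each of the 2 animals and a bar for their mean. IGFBP3 stands highest in DZ in both animals, IGFBP6 highest in SZ in both, and IGFBP4 lowest in MZ in both.

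Among the ligands, the 4 IGF1 probesets did not behave alike. The dimmest read 1.65 and 1.67 in SZ, 1.53 and 1.74 in MZ and 2.39 and 5.07 in DZ, with 5 of 6 arrays under the lower quartile. Both DZ arrays lay above the other 4, that of bov4 far more than that of bov1. SZ minus DZ was −2.07 (SE 0.64, adjusted p = 0.172) and MZ minus DZ −2.09 (SE 0.64, adjusted p = 0.345), and neither was called.

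In the dCHIP table, the authors' other summary of the arrays, the dimmest IGF1 probeset read 2.11 and 0.96 in SZ, 1.96 and 2.07 in MZ and 4.34 and 6.32 in DZ. There SZ minus DZ was called, at −3.79 (adjusted p = 0.0179), and MZ minus DZ was −3.32 (adjusted p = 0.0717). Without DZ replicate 1 (bov1), SZ minus DZ was −3.35 (adjusted p = 0.0193) and MZ minus DZ −3.38 (adjusted p = 0.0296), both called. Leaving out a DZ array leaves 1 array in that zone, which the model matches exactly, so the spread comes from SZ and MZ alone and the lone DZ array is assumed to vary like them. These calls therefore rest on the single DZ array of bov4. Without DZ replicate 2 (bov4), SZ minus DZ was −0.79 (adjusted p = 0.355) and MZ minus DZ −0.81 (adjusted p = 0.476).

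The other IGF1 probesets differed less between zones, and none was called in a comparison. The brightest read 4.13 and 4.19 in SZ, 4.23 and 3.95 in MZ and 4.31 and 4.52 in DZ, so both DZ arrays were highest, by little. The second read 3.74 and 3.91 in SZ, 3.00 and 3.33 in MZ and 3.78 and 3.85 in DZ. MZ lay below both other zones in each animal there, and SZ minus MZ was 0.66 (SE 0.23, adjusted p = 0.466). The third read 2.22 to 2.70, under the lower quartile on all 6 arrays.

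IGF2, a ligand known for its role in fetal growth, was not called in any comparison. Its brightest probeset read 7.91 and 5.36 in SZ, 7.26 and 5.47 in MZ and 6.47 and 4.30 in DZ. The zones overlapped, and bov1 read above bov4 by 2.54 in SZ, 1.79 in MZ and 2.17 in DZ. Within each animal SZ lay above DZ, by 1.44 in bov1 and 1.06 in bov4, and SZ minus DZ was 1.25 (SE 0.27, adjusted p = 0.0781). It was the only one of the 15 probesets on which the animals differed the same way by at least 1 log2 unit in every zone, as 0.437% of all probesets (105) did.

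The other IGF2 probesets did not show that gap between the animals. The second read 4.75 and 5.18 in SZ, 4.58 and 4.91 in MZ and 4.47 and 4.20 in DZ, with bov4 the higher animal in SZ and MZ. The third read 5.40 and 4.56 in SZ, 4.43 and 4.24 in MZ and 3.95 and 3.95 in DZ. Both read lower at each deeper zone in each animal, as 8.03% of all probesets did. For the second SZ minus DZ was 0.63 (SE 0.27, adjusted p = 0.297), and it was 1.04 (SE 0.28, adjusted p = 0.134) for the third. The second turned direction in the dCHIP table, with SZ minus DZ at −0.11 and MZ minus DZ at −0.04, and SZ minus DZ of the third was 0.10. The dimmest read 2.35 to 3.03, with 5 of 6 arrays under the lower quartile.

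H19, the imprinted noncoding RNA of the IGF2 locus, was chosen for naming after its values were seen. It read 10.21 and 9.12 in SZ, 10.49 and 9.06 in MZ and 9.62 and 6.42 in DZ. Here too bov1 read above bov4 in every zone, by 1.09, 1.43 and 3.20. SZ minus DZ was 1.65 (SE 0.51, adjusted p = 0.172).

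**Figure D2:**
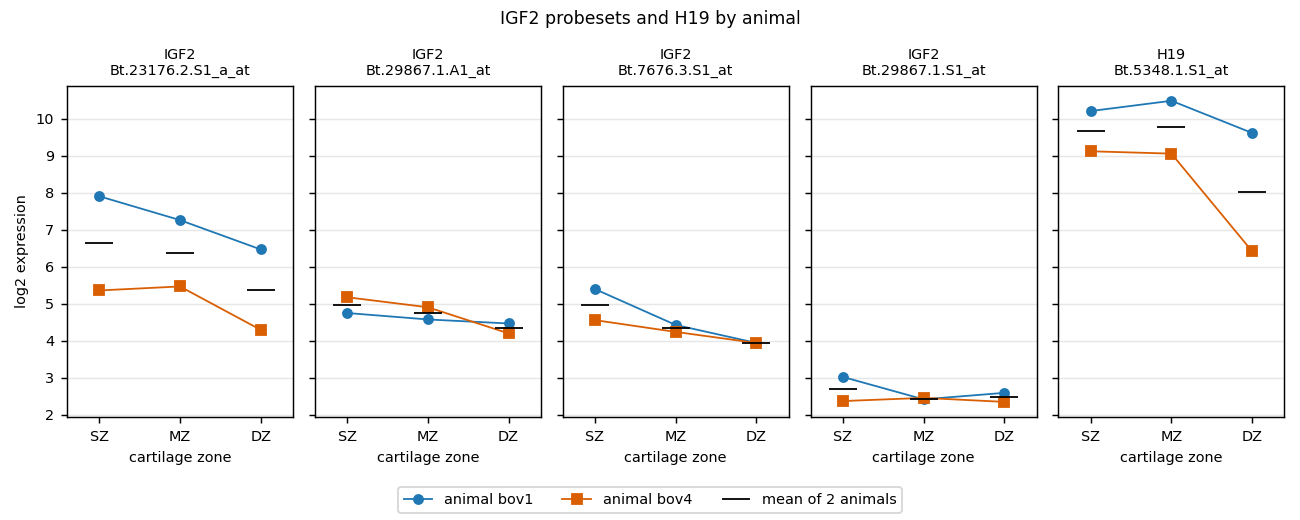
Log2 expression (vertical axis) of the 4 IGF2 probesets and of H19 in SZ, MZ and DZ (horizontal axis), with a line for each animal and a bar for their mean. The animals stand apart in every zone on the brightest IGF2 probeset, by 1.79 to 2.54, and on H19, by 1.09 to 3.20, and lie closer on the other IGF2 probesets.

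IGFBP6, a binding protein known for its preference for IGF2 over IGF1, was higher at the surface. It read 8.01 and 7.75 in SZ, 5.32 and 6.42 in MZ and 5.57 and 5.64 in DZ. Both SZ arrays stood above the other 4, and MZ overlapped DZ. SZ was 4.85-fold above DZ, with SZ minus DZ at 2.28 (SE 0.36, adjusted p = 0.0339), 2.44 in bov1 and 2.12 in bov4. SZ minus MZ was 2.01 (SE 0.36, adjusted p = 0.143) and MZ minus DZ 0.27 (SE 0.36, adjusted p = 0.864), neither called.

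The IGFBP6 call was kept in 8 of 12 alternative settings, with adjusted p from 0.0112 to 0.147 and differences from 1.86 to 2.70. It was lost without the animal block (adjusted p = 0.0565), without SZ replicate 1 (0.141), without DZ replicate 1 (0.123) and without DZ replicate 2 (0.147). Of 9 measured synovial lining and fibroblast genes of 11 listed, 0 were called higher in SZ than in DZ and 2 lower. SZ minus DZ was above 0 for 5 of the 9 and below 0 for 4, with a median of 0.42. Both SZ arrays lay above both DZ arrays for CD55 (1.52), VCAM1 (1.20), FAP (1.78) and COL3A1 (0.89). They lay below for the called CADM1 (−3.12) and PDPN (−1.51) and for PDGFRA (−0.88) and DPT (−2.87). The summed linear intensity of the 9 was 10468 to 11634 in SZ, 9957 to 12281 in MZ and 7179 to 8705 in DZ. COL3A1, at 13.01 and 12.99 in SZ, weighs most in it. Of the 9, 0 lay under the lower quartile on both SZ arrays. Their part in the IGFBP6 difference was not tested.

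IGFBP3, the main carrier of IGF in blood and also made by chondrocytes, was higher in DZ. Its brighter probeset read 1.86 and 2.08 in SZ, 2.42 and 2.25 in MZ and 4.51 and 4.09 in DZ. The DZ arrays stood clear of the other 4, which all lay under the lower quartile, so no fold is given. SZ minus DZ was −2.33 (SE 0.26, adjusted p = 0.0126), −2.65 in bov1 and −2.01 in bov4. MZ minus DZ was −1.97 (SE 0.26, adjusted p = 0.0412), −2.09 in bov1 and −1.84 in bov4. SZ minus MZ, −0.36 (SE 0.26, adjusted p = 0.784), was not called.

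The dimmer IGFBP3 probeset read 1.76 and 2.19 in SZ, 2.18 and 2.08 in MZ and 3.86 and 2.85 in DZ. Its DZ arrays were again the highest, but SZ minus DZ, −1.38 (SE 0.37, adjusted p = 0.126), and MZ minus DZ, −1.22 (SE 0.37, adjusted p = 0.335), were not called. Leaving out each array gave −1.97 to −0.80 for SZ minus DZ and −1.81 to −0.64 for MZ minus DZ. In the dCHIP table these were −0.02 and −0.05, whereas the brighter probeset gave −1.86 (adjusted p = 0.00837) and −1.62 (adjusted p = 0.0329) there, both called. The order of brightness turned in that table. The probeset called dimmer here read 5.62 to 6.14 over the 6 arrays and the brighter 3.06 to 5.17. The 2 IGFBP3 probesets thus differ there on the zones.

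The SZ minus DZ call of the brighter probeset was kept in 9 of 12 settings, with adjusted p from 0.00383 to 0.0691. It was lost without SZ replicate 1 (adjusted p = 0.0568), DZ replicate 1 (0.0691) or DZ replicate 2 (0.0511). The MZ minus DZ call was kept in 7 of 12 settings, with adjusted p from 0.0148 to 0.26. It was lost without the animal block (adjusted p = 0.0521), MZ replicate 1 (0.228), MZ replicate 2 (0.26), DZ replicate 1 (0.202) or DZ replicate 2 (0.108). Both differences were negative in each of these settings.

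Some markers of bone, vessel and immune cells were also called lower in SZ than in DZ, and others were not. Of 4 measured osteoblast genes of 8 listed, 3 were called lower, with summed linear intensities of 125 to 879 in SZ, 117 to 196 in MZ and 14552 to 20568 in DZ. Of 13 endothelial genes 3 were called lower, 0 higher and 10 not, with sums of 259 to 261, 182 to 220 and 450 to 1241 from SZ to DZ. Of 14 macrophage and leukocyte genes 5 were called lower, 0 higher and 9 not, with sums of 163 to 173, 143 to 147 and 725 to 784. SZ minus DZ was above 0, without being called, for the endothelial genes EGFL7 and ENG and for the monocyte gene CD14, at 0.16, 0.33 and 1.06. The endothelial genes KDR and ESAM and the leukocyte genes PTPRC, ITGB2 and CD48 read under the lower quartile on both arrays of SZ and of MZ.

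Of 5 osteoclast genes 2 were called lower in SZ than in DZ, of 8 hypertrophic chondrocyte genes 6, of 10 adipocyte genes 1 and of 6 red cell genes 0. Called or not, SZ minus DZ was below 0 for all 5 osteoclast and all 8 hypertrophic chondrocyte genes. It was below 0 for 6 adipocyte genes and above 0 for 4. All 6 red cell genes had SZ minus DZ above 0 without being called, with sums of 69 to 82 in SZ and 53 in DZ. Within DZ, bov4 had the higher value of the dimmest IGF1 probeset (5.07 against 2.39), the higher endothelial mean (5.88 against 4.70) and the higher osteoblast mean (11.70 against 11.00). For IGFBP3 bov1 was higher (4.51 against 4.09), as for the means of the hypertrophic chondrocyte (10.21 against 8.90), osteoclast (7.40 against 6.29) and leukocyte (4.72 against 4.53) lists. Genes within a list did not all go the way of its mean. In DZ the leukocyte genes PTPRC (4.84 and 4.91) and LYZ (4.72 and 4.94) read higher in bov4, and CSF1R (5.28 and 4.17) in bov1. The part of these markers in the IGFBP3 and IGF1 differences was not tested. In bulk tissue, fewer cells of a type and less RNA per cell cannot be told apart.

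**Figure D3:**
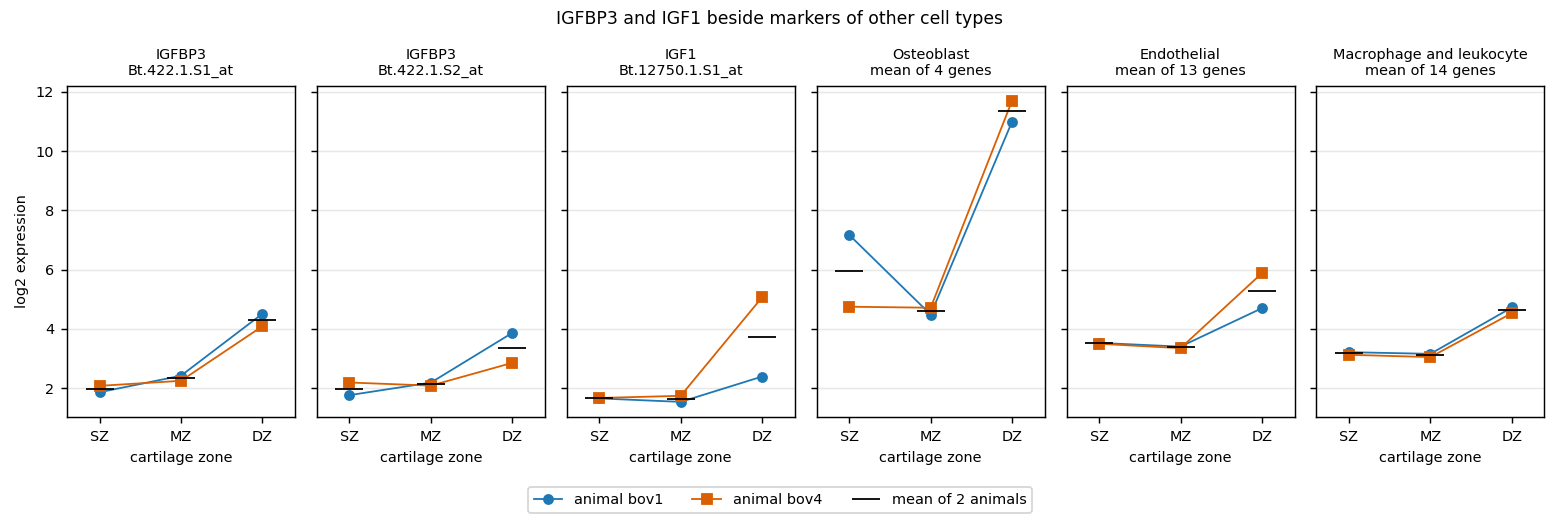
Log2 expression (vertical axis) of both IGFBP3 probesets and the dimmest IGF1 probeset beside the mean log2 level of osteoblast, endothelial and leukocyte markers, by zone (horizontal axis), with a line for each animal and a bar for their mean. Every panel is highest in DZ in each animal. In DZ, of the panels shown, bov1 lies above bov4 for IGFBP3 and the leukocyte mean and below it for IGF1 and the endothelial and osteoblast means. Single genes of these lists did not all go the way of the mean.

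IGFBP4, a binding protein that mostly inhibits IGF action and that the protease PAPPA cuts, read lowest in the middle zone. It read 6.07 and 4.97 in SZ, 3.13 and 3.77 in MZ and 4.88 and 6.47 in DZ. MZ lay below the other zones without overlap, whereas SZ and DZ overlapped and ran in opposite order in the animals (SZ minus DZ 1.20 in bov1 and −1.50 in bov4). SZ minus MZ was 2.07 (SE 0.59, adjusted p = 0.355) and MZ minus DZ −2.23 (SE 0.59, adjusted p = 0.272), neither called.

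The MZ minus DZ difference of IGFBP4 was called in 4 of 12 settings. In the dCHIP table it was −3.62 (adjusted p = 0.0185). With only the 4 arrays of both zones it was −2.23 (adjusted p = 0.0458), and leaving out either SZ array gave the same values. Without DZ replicate 2 it was −1.31 (adjusted p = 0.522), and over all settings adjusted p ran from 0.0185 to 0.878. SZ minus MZ was 0.97 without SZ replicate 1 and 3.18 without SZ replicate 2, and it was called in 0 of 12 settings.

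IGFBP5, a binding protein held in the extracellular matrix, differed between the animals in the deep zone. It read 8.88 and 6.86 in SZ, 5.02 and 4.12 in MZ and 8.49 and 3.96 in DZ. SZ lay above MZ in both animals, but DZ of bov1 was near its SZ value and DZ of bov4 near its MZ value, a gap of 4.53. SZ minus MZ was 3.30 (SE 0.78, adjusted p = 0.261), SZ minus DZ 1.65 (SE 0.78, adjusted p = 0.343) and MZ minus DZ −1.65 (SE 0.78, adjusted p = 0.572). Without DZ replicate 1, SZ minus DZ was 3.18 and called (adjusted p = 0.0473), again on 1 DZ array with the spread taken from SZ and MZ. Without DZ replicate 2 it was 0.11 (adjusted p = 0.956). MZ minus DZ was −0.12 without DZ replicate 1 and −3.19 without DZ replicate 2, neither called. SZ minus MZ was 2.11 without MZ replicate 1 and 4.49 without MZ replicate 2, and it was called in 0 of 12 settings.

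IGFBP7, which binds IGFs with low affinity, read 10.06 and 10.55 in SZ, 9.43 and 10.12 in MZ and 9.93 and 10.63 in DZ. MZ was the lowest zone in each animal, but bov4 read above bov1 in every zone and the zones overlapped. SZ minus MZ was 0.53 (SE 0.23, adjusted p = 0.588) and SZ minus DZ 0.02 (SE 0.23, adjusted p = 0.974). MZ was the lowest zone in both animals for 4 of the 15 probesets (IGFBP4, IGFBP7 and 2 of IGF1), and for 8.28% of all probesets.

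IGFBP2, a binding protein of serum and fetal tissue, read 2.95 and 2.64 in SZ, 2.46 and 2.42 in MZ and 2.25 and 2.43 in DZ. Of its arrays 5 of 6 lay under the lower quartile, and SZ minus DZ was 0.45 (SE 0.24, adjusted p = 0.398). In the RefSeq gene order of ARS-UCD2.0, IGFBP2 lies next to IGFBP5, and IGFBP3 next to IGFBP1, a binding protein known from liver. IGFBP1 read 3.51 and 3.90 in SZ, 3.42 and 3.84 in MZ and 3.18 and 3.35 in DZ and was not called in any comparison. Its DZ arrays were the lowest, whereas those of IGFBP3 were the highest. For IGFBP1 SZ minus DZ was only 0.44 (SE 0.23, adjusted p = 0.381). Both SZ arrays lay above both DZ arrays for 26.3% of all probesets.

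**Figure D4:**
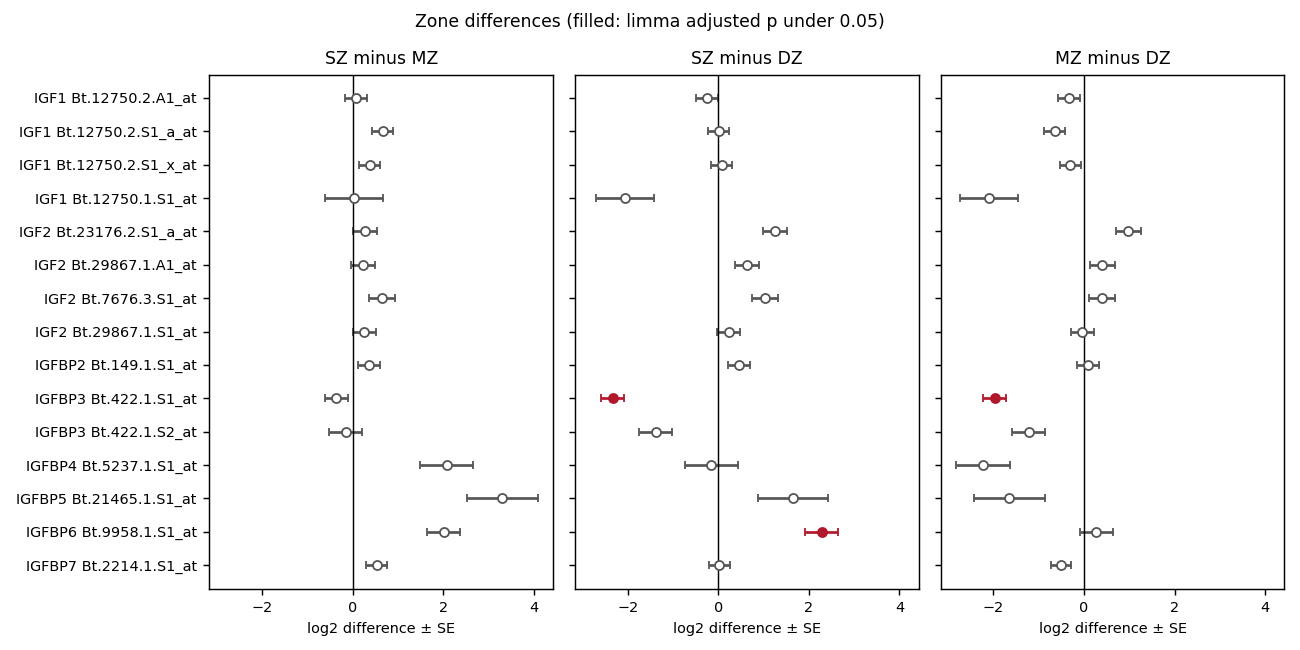
Log2 differences with SE (horizontal axis) of the 15 probesets (vertical axis) for 3 zone comparisons, with called differences filled. The filled points are the brighter IGFBP3 probeset, at −2.33 and −1.97 against DZ, and IGFBP6, at 2.28 for SZ minus DZ, while the open points of IGFBP5 and IGFBP4 have SEs of 0.78 and 0.59.

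In the dCHIP table IGFBP6 read 9.61 and 9.55 in SZ, 7.22 and 8.65 in MZ and 6.74 and 7.38 in DZ, and SZ minus DZ was called at 2.52 (adjusted p = 0.0112). IGFBP4 read 7.47 and 6.37 in SZ, 3.86 and 4.06 in MZ and 7.03 and 8.14 in DZ there. IGFBP5 read 9.07 and 7.86 in SZ, 5.33 and 3.96 in MZ and 8.71 and 3.41 in DZ. IGFBP5 thus had its DZ arrays far apart in this table too, and IGFBP4 its lowest arrays in MZ.

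**Figure D5:**
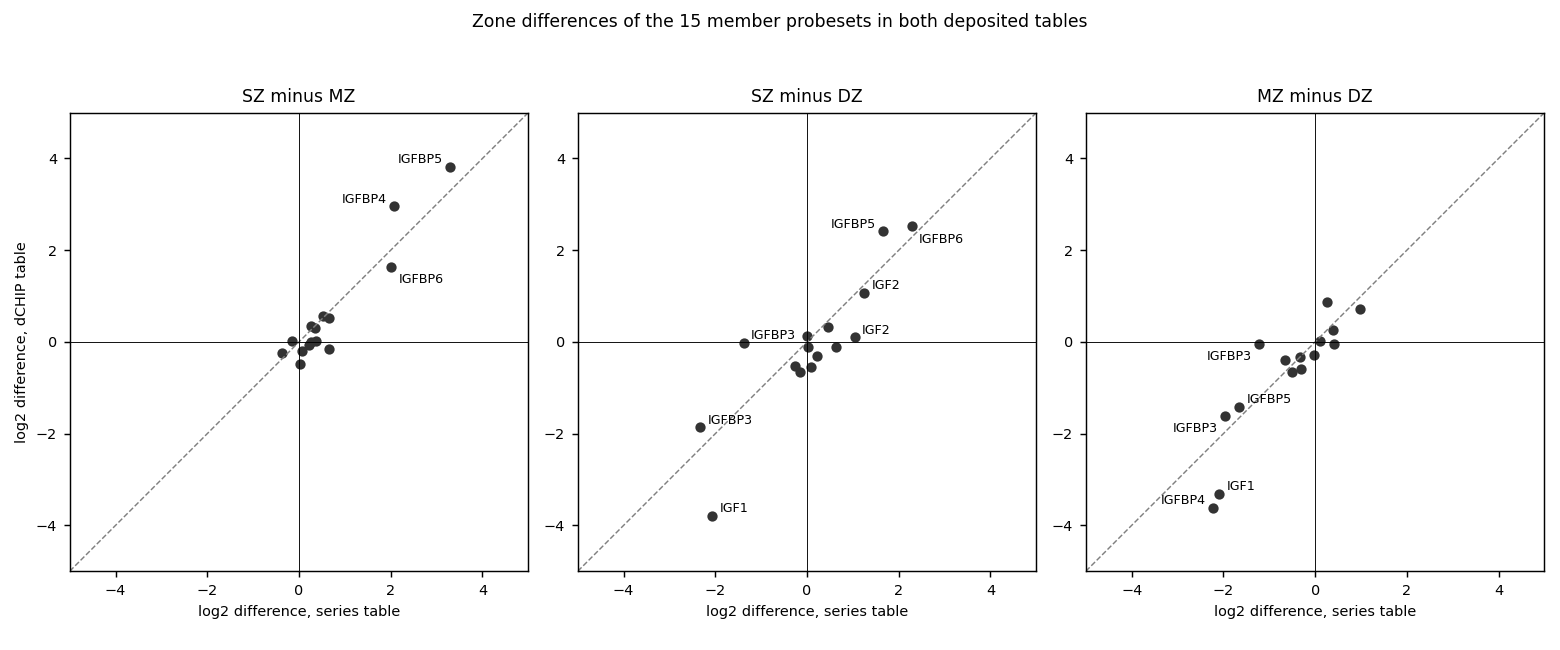
Log2 difference of the 15 probesets in the dCHIP table (vertical axis) against the series table (horizontal axis) for 3 zone comparisons, where the dashed line marks equal values and names are given where either difference reaches 1. IGFBP4, IGFBP5, IGFBP6 and 1 probeset each of IGF1, IGF2 and IGFBP3 differ by at least 1 in both tables in some comparison, but not in every one. The dimmer IGFBP3 probeset, at −1.38 for SZ minus DZ in the series table, lies at −0.02 in the dCHIP table.

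Receptors of the ligands were not called in any comparison (0 of 3 measured genes of 4 listed). IGF1R, the signalling receptor, read 4.97 and 4.99 in SZ, 4.58 and 5.28 in MZ and 6.81 and 5.53 in DZ on its brighter probeset. Both DZ arrays were above the others, with SZ minus DZ at −1.19 (SE 0.46, adjusted p = 0.261). This was −0.37 without DZ replicate 1 and −2.02 without DZ replicate 2. On the dimmer IGF1R probeset SZ read 5.02 and 4.52 and DZ 5.64 and 4.96, which overlap, with SZ minus DZ at −0.53 (SE 0.39, adjusted p = 0.54). For IGF2R SZ minus DZ was 0.23 (SE 0.34, adjusted p = 0.774), and it was −0.09 (SE 0.33, adjusted p = 0.921) for INSR, the insulin receptor.

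Of 12 measured genes that process IGF-binding proteins or control that step, of 14 listed, 1 was called higher in SZ than in DZ, 0 lower and 11 not. It was C1S, a complement protease that cuts IGFBP5 in human fibroblast cultures, at 6.21 and 6.51 in SZ, 4.24 and 4.09 in MZ and 3.78 and 4.64 in DZ. Its SZ arrays lay above the other 4, and SZ minus DZ was 2.15 (SE 0.30, adjusted p = 0.0234). The call was kept in 7 of 12 settings and lost in the dCHIP table (adjusted p = 0.127) and without SZ replicate 1 (0.104), SZ replicate 2 (0.0659), DZ replicate 1 (0.112) or DZ replicate 2 (0.0523).

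PAPPA, the protease of IGFBP4, read 6.06 and 6.39 in SZ, 6.30 and 6.07 in MZ and 7.37 and 5.70 in DZ, where the DZ arrays lay on both sides of the rest. Its SZ minus DZ difference was −0.31 (SE 0.47, adjusted p = 0.784), and that of HTRA1, a serine protease with an IGFBP-like domain, was −0.23 (SE 0.76, adjusted p = 0.908). PAPPA2 and STC2 had no named probeset.

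Of 6 measured relatives with an IGFBP-like domain, of 10 listed, CCN5 was called higher in SZ than in DZ and 5 were not called. CCN5, a secreted protein of the CCN family, read 4.53 and 7.27 in SZ, 2.89 and 4.03 in MZ and 2.52 and 3.65 in DZ. The SZ arrays exceeded the rest, and bov4 read above bov1 in every zone. SZ minus DZ was 2.82 (SE 0.43, adjusted p = 0.0314), called in 9 of 12 settings. The call was lost without the animal block (adjusted p = 0.255), DZ replicate 1 (0.081) or DZ replicate 2 (0.136), and the difference was 1.63 in the dCHIP table.

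Of 26 measured genes of IGF signalling inside the cell, of 34 listed, FOXO1 was called higher in SZ than in DZ and 25 were not called. FOXO1, a transcription factor that insulin and IGF signalling keeps out of the nucleus, read 6.97 and 7.43 in SZ, 5.76 and 6.25 in MZ and 5.46 and 4.68 in DZ on its brighter probeset. It read lower at each deeper zone in both animals, with SZ minus DZ at 2.13 (SE 0.37, adjusted p = 0.0421), and the dimmer probeset gave 1.03 (SE 0.38, adjusted p = 0.245). The call was kept in 5 of 12 settings. It was lost without the animal block (adjusted p = 0.0565), with only the 4 arrays of both zones or without either MZ array (0.0525), and without SZ replicate 1 (0.0999), SZ replicate 2 (0.122) or DZ replicate 2 (0.121).

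In all, 53 of 70 listed IGF system genes outside the 8 were measured. In SZ minus DZ 3 were called higher and 0 lower, with a median difference of −0.17, and in each comparison with MZ limma called 0 of 53. At an unadjusted limma p under 0.05, 9 of 53 passed in SZ minus MZ, 15 in SZ minus DZ and 7 in MZ minus DZ. In that order 2123, 4225 and 2385 of all 24016 probesets did so. Each of the 53 is the brightest probeset of its gene. The shares of all 24016 probesets include dimmer, repeated and unnamed ones, so the sets are unlike. The 3 of 53 stand beside 1.03% of all probesets called higher. Of these 3, the F test over any zone called C1S (adjusted p = 0.036) but not CCN5 (0.0563) or FOXO1 (0.0952). It called 2 of the 12 measured processing genes and 0 genes of the other lists outside the 8, beside 1.84% of all probesets.

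The genes with the profile most like a called member were those with the smallest root mean square (RMS) difference of centred log2 values over the 6 arrays, among 11618 genes. For IGFBP3 they were PCSK6, a proprotein convertase (RMS 0.14), ZFHX4, a zinc finger homeobox factor (RMS 0.15), and SKAP2, an adaptor protein (RMS 0.21). For IGFBP6 they were CA5B, a mitochondrial carbonic anhydrase (RMS 0.26), MGC151567 (RMS 0.27) and GEM, a small GTP-binding protein (RMS 0.27). PCSK6 read 4.01 and 4.50 in SZ, 4.46 and 4.57 in MZ and 6.59 and 6.40 in DZ, highest in both DZ arrays.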

How the data were processed

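RNA of 3 cartilage zones from 2 animals was amplified and hybridised, per the labels' protocols. The authors deposited log2 values in 2 tables: the series table, made with RMA per the submitters' processing notes, and a matrix whose name carries dCHIP. Software versions, the background method and the chip definition are not given in the sources used here, and that the scale is log2 follows from the size of the values. No genome build is named, so no coordinates are given, and no sequences were used here.

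Without the 112 control probesets, 24016 entered the tests, with no filter and no further normalisation. One limma model (version 3.58.1, R 4.3.3) held zone and animal, leaving 2 residual degrees of freedom beside a prior of 4.15, with two-sided tests and Benjamini-Hochberg adjustment. Its p-values rest on how far the zone differences vary between the 2 animals, pooled over the zones and moderated over all probesets. The block removes an animal difference that is alike in every zone. With an array left out, the spread comes from the other zones. The procedure was tested on simulated data. The labels give the animal of each array. The correlation of the bov1 minus bov4 difference across probesets was 0.259 between SZ and MZ, 0.216 between SZ and DZ, and 0.346 between MZ and DZ. An exact permutation of 2 arrays against 2 that ignores the pairing by animal cannot go below p = 0.333. Swapping zones within animals allows fewer arrangements still. Alternatives were no block, the dCHIP table, quantile normalisation, a filter on dim probesets, an intensity trend, only the 4 arrays compared, and leaving out each array. Symbols come from the dCHIP matrix, and 961 probesets were renamed through a RefSeq gene table (ARS-UCD2.0) that held 10320 of 11626 symbols.

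Every probeset of the 8 genes is named, with IGF1R, IGF2R, INSR, PAPPA, PAPPA2, STC2 and HTRA1, up to 4 called genes of each list and direction on the brightest probeset, and the 3 genes nearest in profile to each called member. H19, IGFBP1 and the marker genes are named outside this rule. Under it, CCN3 and PLAU, uncalled at 3.51 and −2.55 in SZ minus DZ, are not described above. Nor is PLAT, which only the F test over any zone called (adjusted p = 0.0387). The members and lists were chosen with earlier results of these data known.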

Additional observations from a re-analysis of the deposited data

How the results depend on the processing

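With 2 animals a zone, no setting adds independent replication, and the calls depended on the choice. Calls over all probesets in SZ minus MZ, SZ minus DZ, MZ minus DZ and any zone were 10, 660, 169 and 443. Without the replicate block they were 3, 295, 62 and 169, and the 15 probesets had 1 call in SZ minus DZ and 0 in MZ minus DZ. In the dCHIP table they were 135, 1262, 259 and 828, and 2 of the 15 were called in MZ minus DZ. SZ minus MZ had 111 calls with the filter on dim probesets and 99 with the intensity trend, and MZ minus DZ 272 with the trend. With only the 4 arrays compared, SZ minus MZ had 31 calls and MZ minus DZ 258, 2 of them among the 15. Leaving out an array leaves 1 in its zone, which is assumed to vary like the other zones. It gave 0 to 31 calls in SZ minus MZ, 204 to 646 in SZ minus DZ, 12 to 258 in MZ minus DZ and 154 to 434 for any zone, and 0 to 2 of the 15 in either comparison with DZ. Signs turned for differences that were not called. In the dCHIP table SZ minus MZ was −0.19 and −0.47 for the brightest and dimmest IGF1 probesets, −0.072, −0.16 and −0.0045 for the second to dimmest IGF2 probesets and 0.029 for the dimmer IGFBP3 probeset. SZ minus DZ there was −0.55 for the IGF1 probeset that ranked below the second, −0.11 and −0.30 for the second and dimmest IGF2 probesets, −0.10 for IGFBP7, 0.28 for INSR and 0.0072 for PAPPA, and MZ minus DZ of the second IGF2 probeset was −0.038. Quantile normalisation gave −0.015 in SZ minus MZ for the dimmest IGF1 probeset, and in SZ minus DZ −0.028 and −0.014 for the second and the third, −0.022 for IGFBP7 and 0.0062 for INSR. Leaving out each array gave SZ minus MZ of −0.14 to 0.28 and −0.69 to 0.74 for the brightest and dimmest IGF1 probesets, −0.015 to 0.55 and −0.015 to 0.53 for the brightest and dimmest IGF2 probesets and −0.65 to 0.33 for the dimmer IGFBP3 probeset. It gave SZ minus DZ of −0.077 to 0.094 for the second IGF1 probeset, −0.048 to 0.50 for the dimmest IGF2 probeset, −1.26 to 0.96 for IGFBP4, −0.080 to 0.12 for IGFBP7, −0.32 to 0.78 for IGF2R, −0.49 to 0.32 for INSR, −1.17 to 0.55 for PAPPA and −1.73 to 1.26 for HTRA1. MZ minus DZ ranged over −0.28 to 0.21 for the dimmest IGF2 probeset, −0.079 to 0.27 for IGFBP2 and −0.33 to 0.87 for IGFBP6. The cause of these changes was not tested. Of 621 values under alternatives, 544 kept direction and side of the threshold. Most of the differences had no call to lose, and staying uncalled counts as kept. Of the other values, 27 lost a call, 8 gained a call and 42 turned direction. The number of arrays limits the precision, and values under the lower quartile have an uncertain size.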
